A study of Mus musculus with 11 samples.

Results

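Heat shock proteins and DnaJ cochaperones were compared between mouse small cell lung cancers with the MYCN transgene on and off. The members are the genes whose symbol begins with Hsp or Dnaj, without Hspg2, which encodes the matrix proteoglycan perlecan. They number 74 of the 23284 genes listed, 29 with an Hsp symbol and 45 with a Dnaj symbol. The samples are 11 tumors of a mouse model of this neuroendocrine carcinoma, measured by poly(A) RNA sequencing. Every tumor carries the genotype Rb;p53, TRE-MYCN, LSL-RTTA, that is, Rb and p53 alleles, MYCN under a tetracycline-responsive element and a Cre-dependent reverse transactivator. The MYCN ON group holds 7 tumors on doxycycline, and the MYCN OFF group holds 4 tumors taken 7 days after doxycycline was stopped. Doxycycline and the transgene changed together, so their effects cannot be told apart. The labels give neither the source of Cre nor the age of the mice, and do not say that each tumor is from its own mouse; the p-values therefore cover the spread between these tumors only.

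HSP70 chaperones bind short hydrophobic stretches of unfolded protein in a cycle driven by ATP. J-domain proteins, the Dnaj genes, bring clients and trigger ATP hydrolysis, and HSP110 proteins exchange the nucleotide and so release the client. HSP90 takes over late folding steps of kinases, steroid receptors and other clients, the HSP60 chaperonin with its HSP10 lid folds proteins of the mitochondrial matrix, and small HSPs hold unfolded proteins without ATP. Each compartment has its own set: heat shock factors drive the stress-inducible cytosolic genes, and the unfolded protein response drives those of the endoplasmic reticulum.

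Promoter sequences are shown for members with a heat shock or a reticulum stress motif before the start, because the results are given by compartment and these motifs mark the stress responses of the cytosol and the reticulum. Windows came from RefSeq on GRCm38.p6, matched by symbol for 60 of the 74 members, and spanned 250 bases before to 50 bases after the start. No window was matched for Dnajc11, Dnajc12, Dnajc18, Dnajc2, Dnajc22, Dnajc30, Dnajc5, Dnajc5b, Hsp90aa1, Hsp90ab1, Hspa13, Hspa8, Hspa9 and Hspb2. Each sequence below lies before the start and reads 5′ to 3′ on the gene's strand, with motif matches in capitals. The capitals in Hspe1 and Dnajb6 mark the heat shock element searched as GAANNTTCNNGAA on both strands, and in Hspe1 they cover a pair of overlapping matches. The capitals in Hspa5, Hsp90b1 and Dnajc3 mark the reticulum stress element searched as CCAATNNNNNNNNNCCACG on both strands. Hspe1 is at chr1:55087933-55088147 on the plus strand, and the same bases read on the minus strand lie before a start of Hspd1. Dnajb6 is at chr5:29735683-29735897 (plus), Hspa5 at chr2:34771875-34772089 (plus), Hsp90b1 at chr10:86705445-86705659 (minus) and Dnajc3 at chr14:118937717-118937931 (plus).
Hspe1: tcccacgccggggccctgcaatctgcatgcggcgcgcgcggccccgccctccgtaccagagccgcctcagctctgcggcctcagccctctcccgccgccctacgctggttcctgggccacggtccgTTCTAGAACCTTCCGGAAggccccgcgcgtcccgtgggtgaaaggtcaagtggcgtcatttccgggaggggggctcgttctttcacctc
Dnajb6: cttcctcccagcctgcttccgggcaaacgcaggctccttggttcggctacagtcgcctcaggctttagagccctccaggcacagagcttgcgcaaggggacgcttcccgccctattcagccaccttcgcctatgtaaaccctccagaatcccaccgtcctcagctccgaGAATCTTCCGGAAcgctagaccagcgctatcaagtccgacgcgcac
Hspa5: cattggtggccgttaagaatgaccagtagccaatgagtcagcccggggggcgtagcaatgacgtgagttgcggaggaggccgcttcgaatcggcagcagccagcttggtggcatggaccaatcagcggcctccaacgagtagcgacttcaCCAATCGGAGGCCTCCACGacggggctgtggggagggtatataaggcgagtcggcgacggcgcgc
Hsp90b1: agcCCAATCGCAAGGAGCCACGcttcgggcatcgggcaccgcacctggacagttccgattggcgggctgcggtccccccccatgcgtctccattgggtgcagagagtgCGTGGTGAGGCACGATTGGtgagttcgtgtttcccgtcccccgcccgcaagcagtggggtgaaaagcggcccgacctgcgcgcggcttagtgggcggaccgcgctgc
Dnajc3: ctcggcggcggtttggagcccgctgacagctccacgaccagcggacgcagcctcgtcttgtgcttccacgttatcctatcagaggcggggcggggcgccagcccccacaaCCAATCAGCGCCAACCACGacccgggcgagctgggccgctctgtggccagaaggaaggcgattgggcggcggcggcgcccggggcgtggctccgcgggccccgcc

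The heat shock element was in 198 of 32851 windows of all genes (0.603%), and the members that held it were Dnajb6, Hspd1, Hspe1 and, after the start, Hsph1. The reticulum stress element was in 39 windows of all genes (0.119%), and the members that held it were Dnajc3, Hsp90b1 and Hspa5. The MYC E-box, searched as CACGTG, was in 2349 windows (7.15%), and the members that held it were Dnajb9, Dnajc1, Dnajc16, Dnajc8, Hspbap1, Hspd1 and Hsph1. A match describes these letters only and was not tested as a binding site.

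The tumors held 8951733 to 13123838 reads in genes. Mycn, the mouse gene that matches the transgene by name, was at 36.5 to 171 CPM (depth-scaled counts, with TMM factors) in MYCN ON, with a median of 109, and at 14.5, 15.7, 13.0 and 5.63 CPM in MYCN OFF tumors 1 to 4. There was no overlap (log2 fold change 3.06, SE 0.47, edgeR adjusted p = 0.00139). The labels do not give the species of the transgene, and how its reads align to the mouse gene was not tested. The small cell neuroendocrine markers, 10 genes, summed to 2663 to 4315 CPM in MYCN ON and to 1784 to 8625 CPM in MYCN OFF. Markers of normal tissue differed between tumors. The 12 alveolar and club cell markers, of which 3 were lower in MYCN ON, summed to 6.91 to 3449 CPM in MYCN ON and to 33640, 40.9, 3057 and 5545 CPM in MYCN OFF tumors 1 to 4. Immune markers, 8 of 11 tested being lower, summed to 141 to 665 CPM against 231 to 5408 CPM. Fibroblast and smooth muscle markers, 1 of 10 being lower, summed to 458 to 1901 CPM against 497 to 2780 CPM. The groups overlapped in each of these sums, and none of these lists had a marker at 0 in every tumor. Their part in the results was not tested, but MYCN OFF tumor 2, which is poor in lung markers, is placed beside the results below. In bulk tissue, fewer cells of a type and less RNA per cell cannot be told apart. Reads aligned to several places, which were counted for no gene, made up 13.8% to 20.9% of the records in MYCN ON and 9.15% to 11.9% in MYCN OFF.

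The abundant cytosolic and mitochondrial chaperones rose with MYCN on, and the chaperones of the endoplasmic reticulum lumen did not pass the test for a rise. Of the 74 members, 68 had enough reads to be tested, and 16 rose and 7 fell in MYCN ON at a Benjamini-Hochberg adjusted p below 0.05 by edgeR's quasi-likelihood test across all genes. The 16 are 23.5% of the tested members, where 16.0% of the 15237 genes tested rose, and the 7 are 10.3%, where 13.4% of all genes fell. The groups did not overlap for 19 members, of which 16 were higher (23.5% of those tested, against 11.4% of all genes) and 3 lower (4.41%, against 5.41%). The median log2 fold change, MYCN ON over MYCN OFF, was 0.18 over the tested members and 0.0023 over all genes tested. MYCN OFF tumor 2 lay below every MYCN ON tumor for 15 of the 16 members that rose, the exception being Dnajc21, and above every MYCN ON tumor for 3 of the 7 that fell. The groups did not overlap for these 15 and these 3 members, so the place of tumor 2 follows from that and adds nothing to it. That tumor was also part of the fit that called these members, so its place is a description and no separate check. All members together took 1.36% to 1.9% of the gene reads of a MYCN ON tumor and 0.994% to 1.12% of those of a MYCN OFF tumor.

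By location, 12 of 40 tested members of the cytosol or nucleus rose and 5 fell, where 16.0% of all genes tested rose and 13.4% fell. Those shares are the background for each location and each family below. The locations and families hold few members, and their counts were not tested against the shares or against each other. In the mitochondrion 4 of 9 rose and 0 fell, with 1 lower at an unadjusted p below 0.05 and 1 lower by both DESeq2 and limma voom. In the reticulum lumen 0 of 8 rose by edgeR, with 1 at an unadjusted p below 0.05 and 0 by DESeq2 and by limma voom, and 1 fell. Of the 5 members of the reticulum membrane, 0 passed in either direction by edgeR, by edgeR at an unadjusted p, by DESeq2 or by limma voom. Dnajc1, the member of the lumen group that fell, is anchored in the membrane and was placed with the lumen because its J domain faces it, so its call would move to the membrane group under the other placing. Among 6 tested members with no location assigned, 1 fell. Summed over members, the cytosolic level was 12627 ± 1947 CPM in MYCN ON and 6589 ± 935 CPM in MYCN OFF (SD, n = 7 and 4). The mitochondrial sum was 1876 ± 458 against 614 ± 89.7 CPM, and for these locations the lowest MYCN ON tumor lay above the highest MYCN OFF tumor. A few called genes make up most of both sums. In MYCN ON, Hspa8, Hsp90ab1 and Hsp90aa1 averaged 3350, 3444 and 2407 CPM in the cytosol. Hspd1 and Hspa9 averaged 798 and 613 CPM in the mitochondrion. The lumenal sum was 2005 ± 711 against 1822 ± 320 CPM and the membrane sum 189 ± 28.8 against 234 ± 58.4 CPM, with overlapping groups in both.

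**Figure D1:**
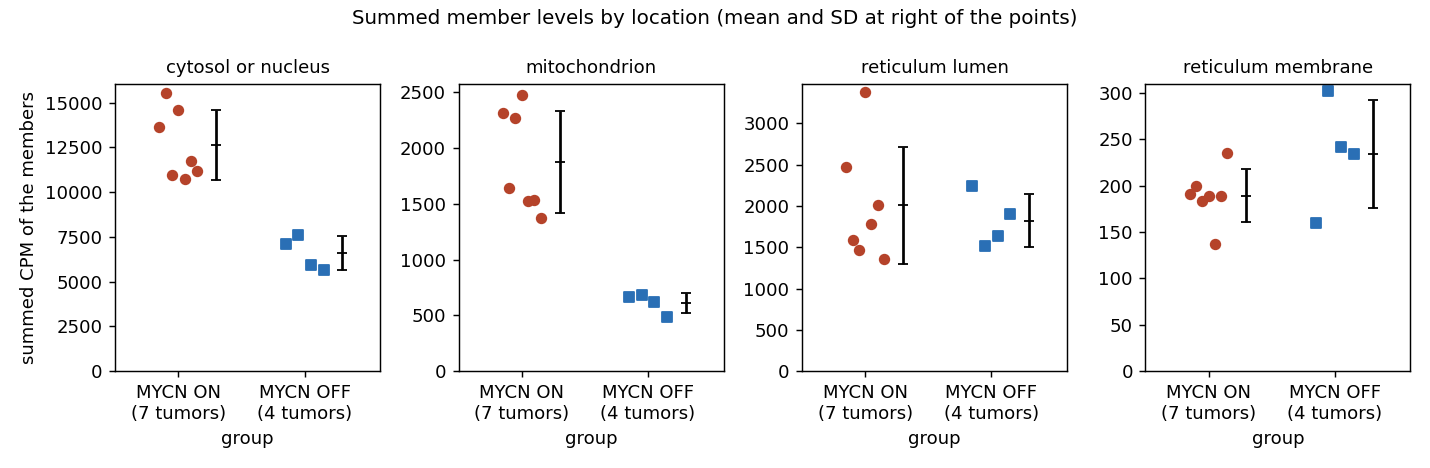
Summed CPM of the members of each location in each tumor (circles, 7 MYCN ON tumors; squares, 4 MYCN OFF tumors), with the group mean and SD at the right of the points. The cytosolic and mitochondrial sums of the groups do not overlap, and the reticulum sums do.

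**Figure D2:**
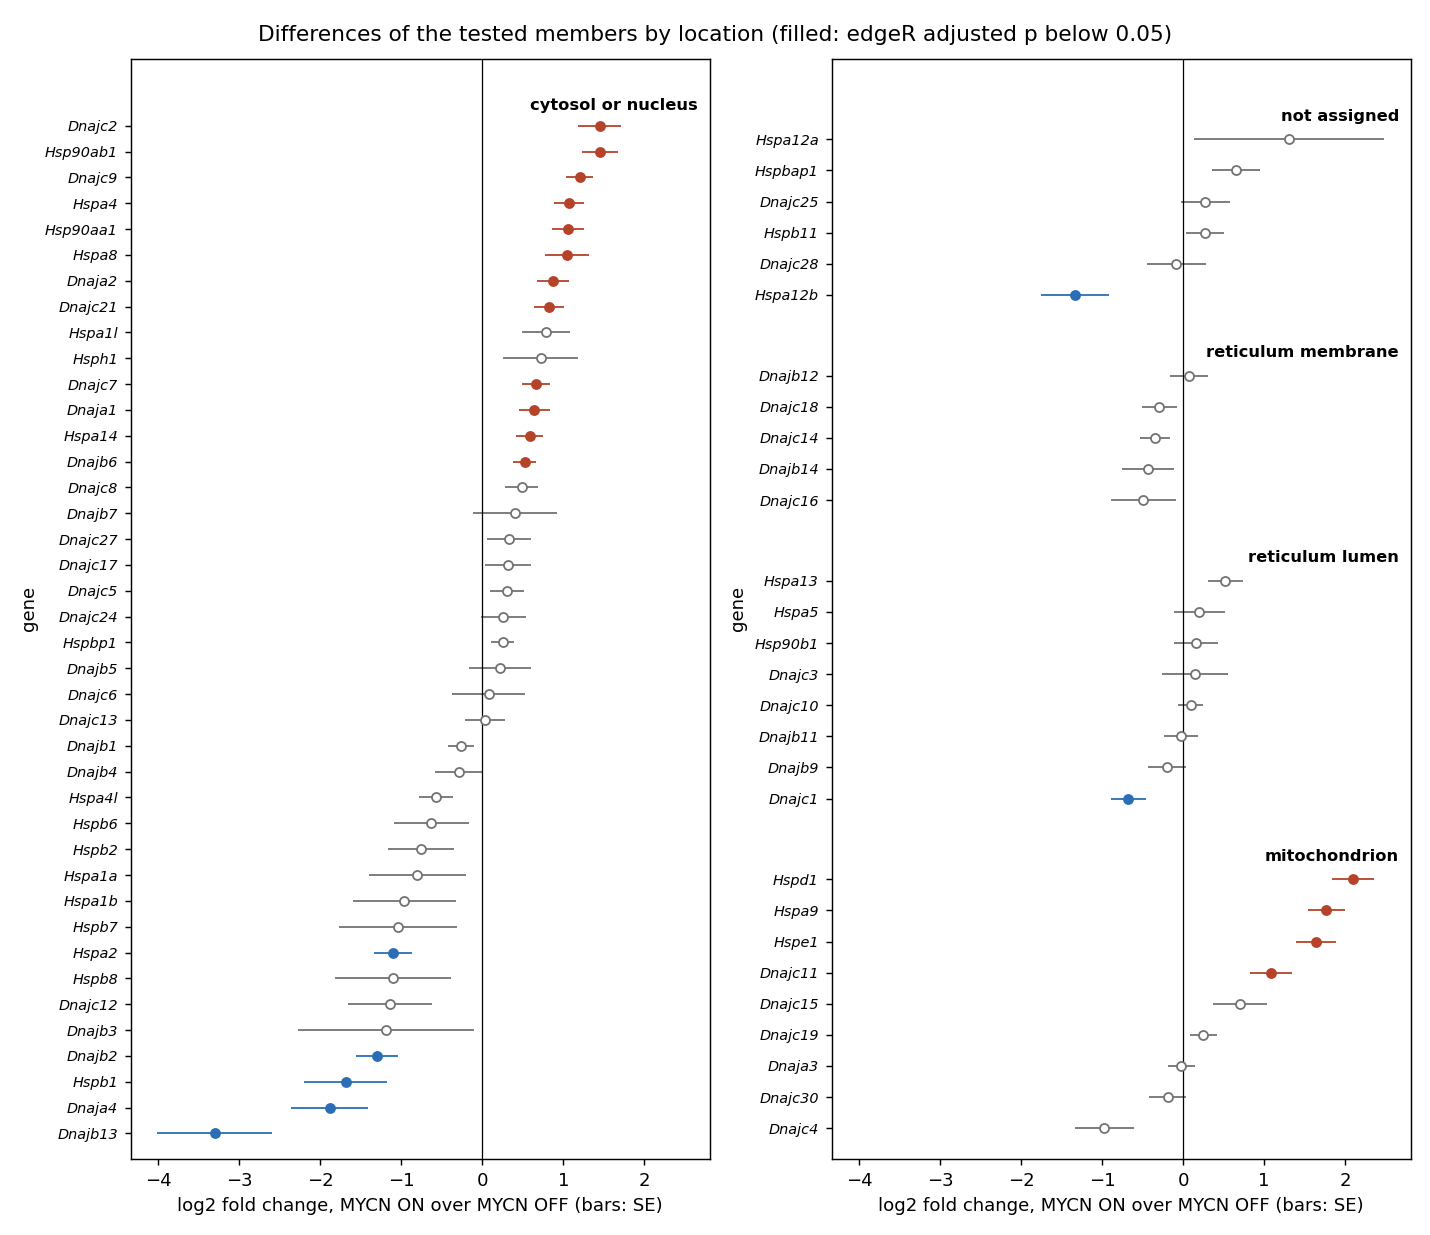
Log2 fold change of the 68 tested members, MYCN ON over MYCN OFF, with standard errors, sorted within each location. Filled points passed the edgeR test at an adjusted p below 0.05, 16 of them to the right of 0 and 7 to the left.

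Of the 3 HSP90 genes, both cytosolic ones rose and the reticulum one was not called. Hsp90ab1, the constitutive cytosolic HSP90, was at 2624 to 5112 CPM in MYCN ON, median 3066, and at 1363, 1539, 984 and 1159 CPM in MYCN OFF tumors 1 to 4. The lowest MYCN ON tumor exceeded every MYCN OFF tumor (log2 fold change 1.45, SE 0.22, edgeR adjusted p = 0.00139). Hsp90aa1, the inducible cytosolic HSP90, was at 1796 to 3186 CPM, median 2434, against 1497, 1077, 1056 and 1009 CPM. MYCN OFF tumor 1 was the nearest to the MYCN ON tumors and still lay below all of them (log2 fold change 1.05, SE 0.20, adjusted p = 0.00344). Hsp90b1, the reticulum HSP90 also called GRP94, was at 557 to 1615 CPM, median 837, against 955, 706, 654 and 853 CPM. All MYCN OFF values lay inside the MYCN ON range, whose top was tumor 4 (log2 fold change 0.16, SE 0.27, adjusted p = 0.678).

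Of 11 HSP70 genes tested, 3 rose and 2 fell, where 16.0% of all genes tested rose and 13.4% fell. Hspa9, the mitochondrial HSP70 mortalin that pulls proteins into the matrix, was at 482 to 785 CPM, median 547, in MYCN ON and at 194, 219, 186 and 121 CPM in MYCN OFF. The lowest MYCN ON tumor was well above the highest MYCN OFF tumor (log2 fold change 1.77, SE 0.23, adjusted p = 0.000633). Hspa8, the constitutive cytosolic HSP70 that also strips clathrin from vesicles, was at 2292 to 5059 CPM, median 3281, against 1793, 2135, 1503 and 1039 CPM. The groups did not overlap, but MYCN OFF tumor 2 came close to the lowest MYCN ON tumor (log2 fold change 1.05, SE 0.27, adjusted p = 0.0152). With a covariate for the lung score, the mean log2 CPM of the 12 alveolar and club markers, Hspa8 missed the threshold (log2 fold change 0.64, adjusted p = 0.163). Hspa14, a ribosome-associated HSP70, was at 76.1 to 102 CPM, median 84.0, against 43.9, 69.0, 61.4 and 56.3 CPM. The groups did not overlap and the difference was small (log2 fold change 0.58, SE 0.16, adjusted p = 0.0199), and the call was lost without MYCN OFF tumor 1 (adjusted p = 0.059) or 4 (0.0515).

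Hspa5, the reticulum HSP70 known as BiP, was at 342 to 1095 CPM, median 504, in MYCN ON and at 685, 420, 518 and 500 CPM in MYCN OFF. Every MYCN OFF tumor lay inside the MYCN ON range (log2 fold change 0.20, SE 0.32, adjusted p = 0.662). Hspa13, a reticulum HSP70 without the usual substrate domain, was at 56.8 to 108 CPM, median 66.9, against 50.7, 46.6, 62.7 and 48.0 CPM. MYCN OFF tumor 3 lay among the MYCN ON tumors and the others below them (log2 fold change 0.52, SE 0.22, adjusted p = 0.0904).

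The stress-inducible pair Hspa1a and Hspa1b, the classical HSP70 genes of the heat shock response, was near the detection limit in every tumor. Hspa1b was at 0.354 to 3.44 CPM, median 1.05, in MYCN ON and at 4.96, 1.39, 1.69 and 2.44 CPM in MYCN OFF (log2 fold change -0.96, SE 0.63, adjusted p = 0.27). Hspa1a was at 0.181 to 2.03 CPM, median 0.929, against 2.96, 1.29, 1.22 and 0.844 CPM (log2 fold change -0.80, SE 0.60, adjusted p = 0.326). These genes are near-identical copies, so reads that fit both were counted for neither, and both levels are uncertain. Hspa1l, a neighbouring gene best known from testis, averaged 10.1 ± 1.02 CPM in MYCN ON and 5.88 ± 2.08 CPM in MYCN OFF with no overlap of the groups, yet it missed the threshold by edgeR (log2 fold change 0.79, SE 0.30, adjusted p = 0.0669). It passed with DESeq2 (adjusted p = 0.0163) and with limma voom (0.0378). Reads of overlapping or antisense partners cannot be told apart, because the strand setting is not given in the sources used here.

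The 2 HSP70 genes that fell are less abundant ones. Hspa2, best known from testis and brain, was at 13.7 to 21.3 CPM, median 17, in MYCN ON and at 56.7, 30.9, 29.9 and 29.9 CPM in MYCN OFF. All MYCN OFF tumors lay above all MYCN ON tumors, tumor 1 farthest (log2 fold change -1.10, SE 0.23, adjusted p = 0.00614). Hspa12b, a distant HSP70 relative known from endothelial cells, was at 2.39 to 6.4 CPM, median 5.07, against 21.1, 6.34, 10.2 and 7.32 CPM. MYCN OFF tumor 2 lay within the MYCN ON range (log2 fold change -1.34, SE 0.42, adjusted p = 0.0322). Endothelial markers, of which 6 of 10 fell and none was at 0, summed to 102 to 408 CPM in MYCN ON and to 1140, 177, 427 and 634 CPM in MYCN OFF. Their part in the Hspa12b result was not tested, and without MYCN OFF tumor 1, the tumor richest in these markers, its log2 fold change was -0.84 (adjusted p = 0.163). Its call was also lost without MYCN ON tumor 2 (adjusted p = 0.0552), without MYCN ON tumor 4 (0.0546) and without MYCN OFF tumor 3 (0.0596). Hspa12a, the paralog of Hspa12b, varied more than any other tested member among the MYCN ON tumors, from 0.697 to 78.7 CPM, and was not called.

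**Figure D3:**
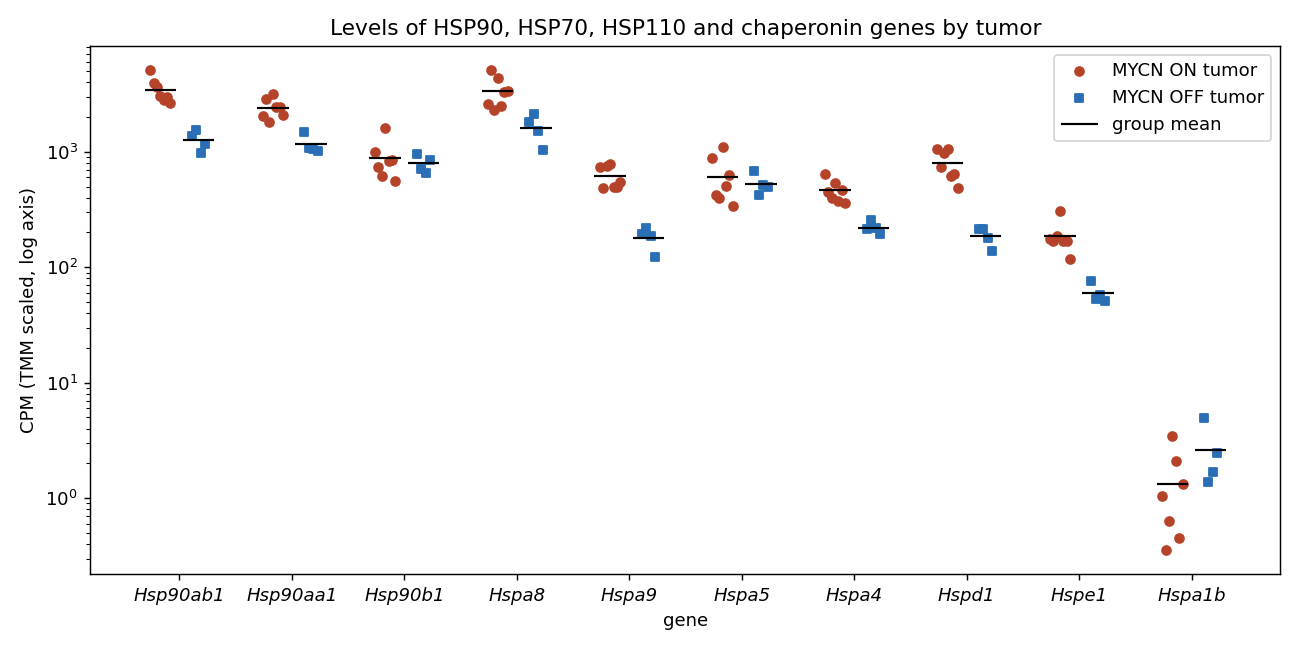
CPM of HSP90, HSP70, HSP110 and chaperonin genes in each tumor on a log axis (circles, 7 MYCN ON; squares, 4 MYCN OFF; lines, group means). The groups separate for Hsp90ab1, Hsp90aa1, Hspa8, Hspa9, Hspa4, Hspd1 and Hspe1 and overlap for Hsp90b1, Hspa5 and Hspa1b.

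Both chaperonin genes rose, Hspd1 with the largest log2 fold change among the members that rose. Hspd1, mitochondrial HSP60, was at 489 to 1057 CPM, median 740, in MYCN ON and at 213, 216, 179 and 138 CPM in MYCN OFF. No MYCN OFF tumor came near the lowest MYCN ON tumor (log2 fold change 2.10, SE 0.26, adjusted p = 0.000606, a 4.28-fold difference). Hspe1, its HSP10 lid, was at 117 to 306 CPM, median 170, against 76.3, 53.2, 57.4 and 50.6 CPM. The groups did not overlap, and MYCN ON tumor 4 stood above the rest (log2 fold change 1.64, SE 0.25, adjusted p = 0.00132, a 3.11-fold difference). The 2 genes lie head to head and share the promoter bases shown above. Hspd1, Hspe1, Hspa8, Hsp90aa1, Hsp90ab1 and Dnaja1 have processed pseudogenes, so part of their reads may align to several places, and their levels are uncertain to that extent.

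Of the 3 HSP110 genes 1 rose. Hspa4, a cytosolic nucleotide exchange factor, was at 360 to 640 CPM, median 452, in MYCN ON and at 214, 256, 217 and 195 CPM in MYCN OFF. MYCN ON and MYCN OFF tumors lay apart (log2 fold change 1.07, SE 0.19, adjusted p = 0.00226). Its relative Hspa4l was at 55.0 to 124 CPM, median 75.6, against 107, 129, 91.2 and 125 CPM. MYCN ON tumor 4 lay among the MYCN OFF tumors and the other 6 below them (log2 fold change -0.57, SE 0.21, adjusted p = 0.0627), and without that tumor Hspa4l passed the test (log2 fold change -0.73, adjusted p = 0.0106). Hspa4l also passed with DESeq2 (adjusted p = 0.0183) and with limma voom (0.0491). Hsph1, the heat-inducible HSP110, was at 57.1 to 465 CPM, median 136, against 126, 131, 87.6 and 72.6 CPM. MYCN ON tumor 4 alone was far above the others (log2 fold change 0.72, SE 0.46, adjusted p = 0.256), and without it the log2 fold change was 0.24 (adjusted p = 0.537).

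Per length, the order of the most abundant members changed between the groups. The scale here is mean CPM per kilobase of the longest coding transcript in GENCODE vM21, which is an approximate length because the isoforms counted are unknown. In MYCN ON, Hspa8 was first at 1399 CPM per kilobase, followed by Hsp90ab1 at 1367, Hsp90aa1 at 734, Hspd1 at 329, Hsp90b1 at 314, Hspe1 at 239, Hspa9 at 201 and Hspa5 at 166. In MYCN OFF, Hspa8 at 676, Hsp90ab1 at 501 and Hsp90aa1 at 353 came first again. Hsp90b1 at 280, Hspa5 at 145 and Dnajc8 at 113 came next, ahead of Hspd1 at 77.0 and Hspe1 at 76.7. These places are a description, and neighbours in the order were not tested against each other.

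Ratios within a tumor were taken for 6 pairs chosen after the values above were known, so their p-values describe the pairs and are not independent of the single-gene results. The log2 ratio of Hsp90ab1 to Hsp90b1 was 2.01 ± 0.57 in MYCN ON and 0.67 ± 0.31 in MYCN OFF, a difference of 1.34 (two-sided exact permutation test, p = 0.00909, 0.0182 adjusted over 6 ratios). MYCN ON tumor 4, at 0.93, lay among the MYCN OFF tumors. The log2 ratio of Hsp90aa1 to Hsp90b1 differed by 0.95 (exact p = 0.00303, adjusted 0.00909), as 1.5 ± 0.38 against 0.55 ± 0.21 with no overlap. That p is the smallest the 330 ways of dividing the tumors allow. Hspa9 over Hspa5 differed by 1.67, as 0.10 ± 0.54 against -1.57 ± 0.48 (exact p = 0.00303, adjusted 0.00909), again without overlap. Hspa8 over Hspa5 differed by 0.94, as 2.52 ± 0.71 against 1.58 ± 0.55, and missed the threshold (exact p = 0.0515, adjusted 0.0618). Within the chaperonin pair, Hspd1 over Hspe1 differed by 0.46 (exact p = 0.0303, adjusted 0.0455) with overlapping groups. Within the cytosolic HSP90 pair, Hsp90ab1 over Hsp90aa1 differed by 0.39 and did not pass (exact p = 0.2, adjusted 0.2).

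Across the 7 MYCN ON tumors, 6 pairs, also chosen after seeing the data, were examined for joint variation. Hspa5 and Hsp90b1, which share the reticulum stress element shown above, had r = 0.947 (exact permutation p adjusted over 6 pairs = 0.00119) and rho = 1 (adjusted exact p = 0.00238). Without tumors 4 and 1, the farthest in Hspa5, r was 0.925. Hspa5 and Dnajc3, the reticulum J protein p58IPK that holds the same element, had r = 0.862 (adjusted exact p = 0.0377) and rho = 0.786 (adjusted exact p = 0.072), but r fell to 0.538 without those tumors, so the relation rests on them. Hspd1 and Hspe1 had r = 0.768 (adjusted exact p = 0.0377) and rho = 0.964 (adjusted exact p = 0.00833), and r = 0.84 without tumors 7 and 4. Hspa8 and Hsp90aa1 had r = 0.814 (adjusted exact p = 0.0467) and rho = 0.786 (adjusted exact p = 0.072), and r = 0.68 without tumors 2 and 3. Neither Hsp90aa1 with Hsp90ab1 (r = -0.217, adjusted exact p = 0.646; rho = -0.107, adjusted exact p = 0.84) nor Hsph1 with Dnajb1 (r = -0.267, adjusted exact p = 0.646; rho = -0.214, adjusted exact p = 0.794) showed a relation that passed. For these pairs r was -0.0764 without tumors 3 and 4, and -0.00243 without tumors 4 and 7.

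**Figure D4:**
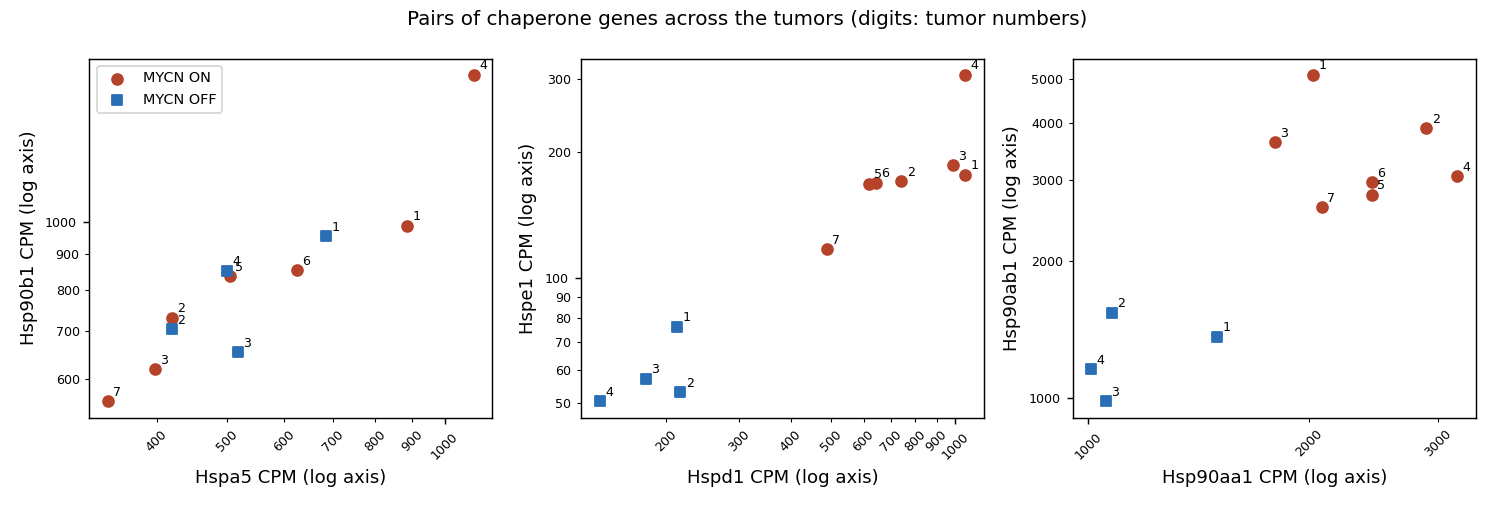
CPM of a pair of chaperone genes in each tumor on log axes (circles, MYCN ON; squares, MYCN OFF; digits, tumor numbers). Hspa5 and Hsp90b1 order the 7 MYCN ON tumors identically and the groups overlap, while for Hspd1 with Hspe1 and for the cytosolic HSP90 pair the groups lie apart.

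Small HSPs among the members averaged at most 25.9 CPM in MYCN ON and 55.6 CPM in MYCN OFF, both for Hspb8. Of 5 tested, with log2 fold changes from -1.69 to -0.63, Hspb1 alone was called. Cryab, a small HSP whose symbol lies outside the rule, was read with the cofactors and fell (log2 fold change -1.80, edgeR adjusted p = 0.0236). Its groups overlapped, and MYCN OFF tumor 1 was the highest at 107 CPM. Hspb1, the actin-protecting HSP27, was at 3.48 to 11.9 CPM, median 5.71, in MYCN ON and at 50.9, 11.8, 8.24 and 24.1 CPM in MYCN OFF. MYCN OFF tumors 2 and 3 lay within the MYCN ON range (log2 fold change -1.69, SE 0.52, adjusted p = 0.0298). The alveolar and club markers given above, of which 3 of 12 fell, were likewise highest in MYCN OFF tumors 1 and 4. MYCN OFF tumor 3, with 3057 CPM of these markers, had less Hspb1 than tumor 2, with 40.9 CPM. In MYCN ON these markers were highest in tumors 5 and 3, and Hspb1 in tumors 5 and 4. The part of lung cells in the Hspb1 result was not tested. Without MYCN OFF tumor 1 the log2 fold change of Hspb1 was -0.99 (adjusted p = 0.175), and the call was also lost without MYCN OFF tumor 4 (0.0638), without MYCN ON tumor 2 (0.0523), 6 (0.0505) or 7 (0.0502) and with limma voom (0.0697). Hspb8, the partner of Bag3 in selective autophagy, was at 4.07 to 58.6 CPM, median 13.2, against 34.3, 23.4, 58.2 and 107 CPM with wide overlap (adjusted p = 0.264). Bag3 itself, read with the cofactors, fell without overlap of the groups (log2 fold change -1.51, edgeR adjusted p = 0.0446). Hspb6, a small HSP of muscle, was at 4.41 to 18.9 CPM, median 8.83, against 9.2, 34.8, 12.1 and 8.63 CPM. MYCN OFF tumor 2 stood apart. Muscle markers, of which 0 of 9 tested passed by edgeR (1 at an unadjusted p below 0.05, Ckm by DESeq2 and Myh7 by limma voom), summed highest there, to 523 CPM, against 29.8 to 365 CPM in MYCN ON. In MYCN OFF tumors 1, 3 and 4 muscle markers summed to 416, 365 and 30.7 CPM, and none of the list was at 0 in every tumor. The genes behind the sums differed between tumors. Acta1 was at 152 CPM in MYCN OFF tumor 2 and at 1.12 and 3.11 CPM in tumors 1 and 3. Myh6 was at 35.5 CPM in tumor 2 and at 140 and 171 CPM in tumors 1 and 3. The part of muscle in the Hspb6 values was not tested, and without MYCN OFF tumor 2 its log2 fold change went from -0.63 to 0.08. Hspb2 and Hspb7 stayed at 13.2 CPM or less in every tumor and were not called, and Hspb3 and Hspb9 were under 1 CPM in every tumor and not tested.

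The class A J proteins, the general partners of cytosolic HSP70, rose for 2 of 4 genes and fell for 1. Over all genes tested 16.0% rose and 13.4% fell. Dnaja2 was at 218 to 408 CPM, median 264, in MYCN ON and at 186, 142, 140 and 137 CPM in MYCN OFF. No MYCN OFF tumor reached the MYCN ON range (log2 fold change 0.88, SE 0.20, adjusted p = 0.00779). Dnaja1 was at 391 to 756 CPM, median 450, against 360, 334, 311 and 260 CPM, with the highest value in MYCN ON tumor 4. The groups lay apart by a narrow gap (log2 fold change 0.64, SE 0.19, adjusted p = 0.0271), and the call was lost without MYCN ON tumor 1 (adjusted p = 0.0692), MYCN OFF tumor 3 (0.0649) or MYCN OFF tumor 4 (0.0819). Dnaja4 went the other way, at 3.35 to 43.7 CPM, median 21.8, against 64.7, 76.0, 59.5 and 120 CPM. All MYCN OFF tumors, the lung-poor tumor 2 included, lay above all MYCN ON tumors (log2 fold change -1.88, SE 0.48, adjusted p = 0.0137). Dnaja3, the mitochondrial class A protein, was at 34.2 to 55.7 CPM, median 44.1, against 45.6, 44.3, 42.2 and 51.9 CPM (log2 fold change -0.02, SE 0.16, adjusted p = 0.934).

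Among 12 tested class B J proteins 1 rose and 2 fell, where 16.0% of all genes tested rose and 13.4% fell. Dnajb6, a suppressor of polyglutamine aggregation, was at 176 to 253 CPM, median 203, in MYCN ON and at 151, 141, 140 and 159 CPM in MYCN OFF. The groups did not overlap and the difference was small (log2 fold change 0.52, SE 0.14, adjusted p = 0.017), and the call was lost without MYCN ON tumor 1 (adjusted p = 0.061). Dnajb2, a J protein enriched in neurons that passes clients to the proteasome, was at 16.1 to 49.7 CPM, median 34.4, against 66.4, 100.2, 60.8 and 95.6 CPM. Every MYCN OFF tumor lay above every MYCN ON tumor, and tumor 2 was the highest (log2 fold change -1.30, SE 0.26, adjusted p = 0.00481). Dnajb1, the HSP40 of the heat shock response, was at 48.9 to 70.3 CPM, median 53.2, against 64.8, 87.4, 66.9 and 57.0 CPM with overlap (log2 fold change -0.26, SE 0.16, adjusted p = 0.243). It passed as lower when libraries were scaled by totals (log2 fold change -0.58, adjusted p = 0.012) or by upper quartiles (-0.47, adjusted p = 0.0242). Immediate early genes, a list of 13 without heat shock genes, summed to 346 to 573 CPM in MYCN ON and 695 to 1010 CPM in MYCN OFF, with 8 of 13 lower and none at 0 in every tumor. Their part was not tested.

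Dnajb13, an axonemal protein of motile cilia and sperm, fell most among the called members. It was at 0.232 to 1.09 CPM, median 0.362, in MYCN ON and at 14.1, 0.892, 2.09 and 4.03 CPM in MYCN OFF. MYCN OFF tumor 2 lay within the MYCN ON range (log2 fold change -3.31, SE 0.71, adjusted p = 0.00665). Ciliated cell markers, of which 6 of 8 tested fell and none was at 0 in every tumor, summed to 17.3 to 76.1 CPM in MYCN ON and to 642, 119, 117 and 113 CPM in MYCN OFF. MYCN OFF tumor 1 had the most Dnajb13 and the most of these markers. MYCN OFF tumor 2 was next in the markers, above every MYCN ON tumor, but not in Dnajb13. The part of ciliated cells in the Dnajb13 result was not tested. Without MYCN OFF tumor 1 the log2 fold change of Dnajb13 was -2.13 (adjusted p = 0.0348).

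**Figure D5:**
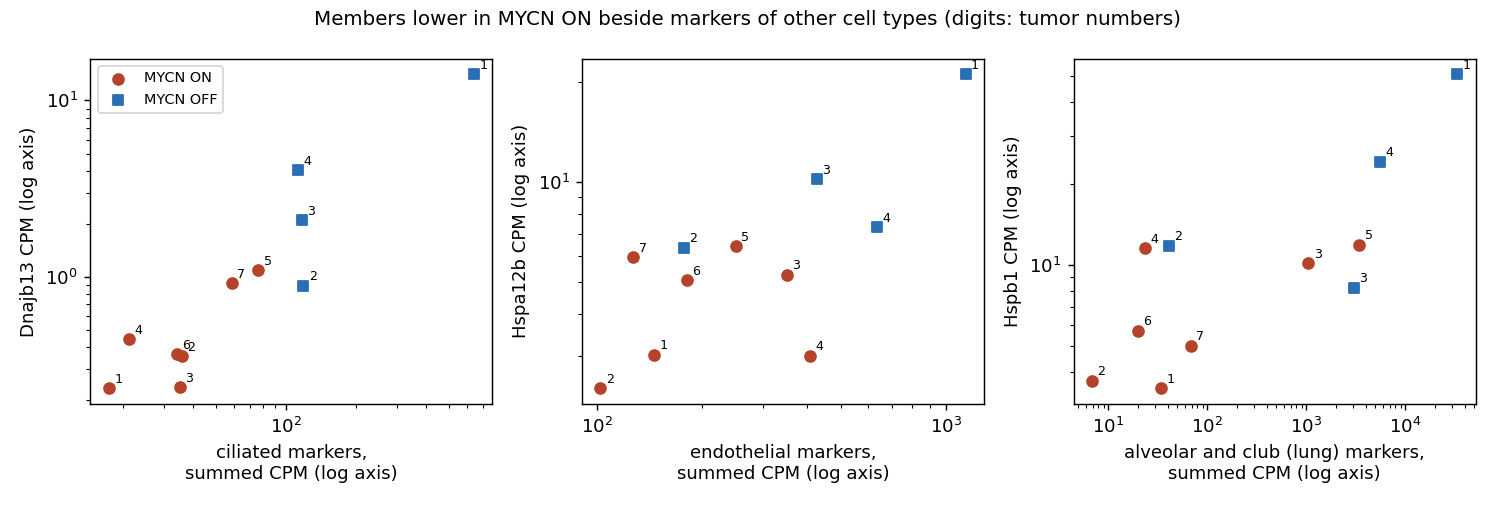
CPM of a member that fell in MYCN ON against the summed CPM of a cell type's markers in each tumor, on log axes (circles, MYCN ON; squares, MYCN OFF; digits, tumor numbers). MYCN OFF tumor 1 is highest on both axes in each panel, and MYCN OFF tumor 2 lies within the MYCN ON range of each of the 3 genes.

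The remaining class B proteins were not called. In the reticulum, Dnajb11, the BiP partner ERdj3, was at 57.6 to 131 CPM, median 83.1, against 94.1, 72.8, 101 and 91.0 CPM, with all MYCN OFF values inside the MYCN ON range (log2 fold change -0.03, SE 0.21, adjusted p = 0.933). Dnajb9, the lumenal ERdj4, was at 36.6 ± 6.97 against 42.0 ± 12.7 CPM, and the membrane proteins Dnajb12 and Dnajb14 had log2 fold changes of 0.07 (SE 0.23) and -0.43 (SE 0.32). Dnajb3, Dnajb4, Dnajb5 and Dnajb7 had log2 fold changes between -1.19 and 0.40, and Dnajb8 had no read in any tumor.

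Class C J proteins have specialised posts, and of 25 tested 5 rose and 1 fell. Over all genes tested 16.0% rose and 13.4% fell. Dnajc2, which sits at the ribosome with Hspa14 and meets nascent chains, was at 95.0 to 248 CPM, median 143, in MYCN ON and at 78.7, 60.9, 54.4 and 44.2 CPM in MYCN OFF. There was no overlap (log2 fold change 1.45, SE 0.26, adjusted p = 0.00277). Dnajc9, a chaperone of histones H3 and H4, was at 128 to 207 CPM, median 146, against 58.4, 75.5, 63.6 and 67.4 CPM. The MYCN OFF tumors clustered well below all MYCN ON tumors (log2 fold change 1.2, SE 0.17, adjusted p = 0.000982). Dnajc21, a factor of 60S ribosome maturation, was at 72.1 to 111 CPM, median 105, against 43.3, 73.5, 54.0 and 50.5 CPM. MYCN OFF tumor 2 reached the lowest MYCN ON tumor and the rest lay below (log2 fold change 0.82, SE 0.18, adjusted p = 0.00759). Dnajc11, a protein of mitochondrial cristae organisation, was at 96.7 to 215 CPM, median 153, against 60.6, 91.6, 84.6 and 59.0 CPM. The lowest MYCN ON tumor was just above the highest MYCN OFF tumor (log2 fold change 1.09, SE 0.26, adjusted p = 0.0108). Dnajc7, which binds both HSP70 and HSP90, rose from 163 ± 24.9 to 257 ± 48.7 CPM without overlap (log2 fold change 0.66, SE 0.17, adjusted p = 0.0163), and its call was lost without MYCN OFF tumor 3 or 4 (largest adjusted p = 0.0513).

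Dnajc1, a reticulum protein that links BiP to the ribosome, was the member of the lumen group that fell, though its anchor is in the membrane. It was at 33.0 to 62.6 CPM, median 42.3, in MYCN ON and at 75.6, 49.2, 63.8 and 92.7 CPM in MYCN OFF. MYCN OFF tumor 2 lay among the MYCN ON tumors (log2 fold change -0.68, SE 0.22, adjusted p = 0.035). The call was lost when any of MYCN ON tumors 2, 5, 6 and 7 or MYCN OFF tumors 1, 3 and 4 was left out, with log2 fold changes between -0.80 and -0.51 over all 11 omissions and a largest adjusted p of 0.131. The other lumenal class C proteins were not called. Dnajc10, the disulfide reductase ERdj5, was at 134 to 186 CPM, median 148, against 141, 143, 118 and 181 CPM (log2 fold change 0.10, SE 0.16, adjusted p = 0.672). Dnajc3 averaged 110 ± 52.4 CPM in MYCN ON and 99.3 ± 56.0 CPM in MYCN OFF, a log2 fold change of 0.14 (SE 0.41), with its highest values in MYCN ON tumors 1 and 4 and MYCN OFF tumor 1.

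The other class C members did not pass. Dnajc8, a spliceosome-associated protein, was at 150 to 323 CPM, median 213, against 133, 178, 178 and 146 CPM, with 6 of 7 MYCN ON tumors above all MYCN OFF tumors (log2 fold change 0.49, SE 0.20, adjusted p = 0.0869). Without MYCN ON tumor 5, the lowest of its group, it passed (log2 fold change 0.56, adjusted p = 0.0442). Dnajc4, counted among mitochondrial members, averaged 5.13 ± 1.87 and 10.1 ± 2.79 CPM and just missed the threshold (log2 fold change -0.98, SE 0.36, adjusted p = 0.0608); it is the mitochondrial member called lower by DESeq2 and limma voom. Dnajc15 and Dnajc19, of the mitochondrial import motor, had log2 fold changes of 0.70 (SE 0.33) and 0.25 (SE 0.17). Genes of vesicle traffic were not called either: Dnajc5, the cysteine string protein of synaptic vesicles, was at 143 ± 30.9 against 116 ± 28.8 CPM, Dnajc6, the clathrin uncoating factor auxilin, at 144 ± 72.1 against 136 ± 80.1 CPM, and endosomal Dnajc13 at 67.2 ± 21.2 against 65.6 ± 6.28 CPM. Dnajc12, a partner of aromatic amino acid hydroxylases, averaged 31.5 ± 22.4 and 69.2 ± 24.1 CPM with wide spread (log2 fold change -1.13, SE 0.52, adjusted p = 0.115). Dnajc22 was too low to be tested, at 0 to 0.335 CPM in MYCN ON and 0.96, 10.3, 0.54 and 0.75 CPM in MYCN OFF, where tumor 2 held most of its 145 reads. Dnajc5b was under 1 CPM in every tumor and Dnajc5g had no read. Dnajc14, Dnajc16, Dnajc17, Dnajc18, Dnajc24, Dnajc25, Dnajc27, Dnajc28 and Dnajc30 had log2 fold changes between -0.49 and 0.33. The symbols that name chaperone partners or other proteins, Hspbp1, Hspbap1 and Hspb11, had log2 fold changes of 0.25, 0.65 and 0.27, and none passed the test by edgeR, DESeq2 or limma voom, with 1 at an unadjusted p below 0.05.

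Cofactors of the chaperones were read from lists outside the members. Of 25 heat shock factors and cytosolic HSP90 or HSP70 cofactors, 10 rose and 4 fell, with a median log2 fold change of 0.39. Over all genes tested, 16.0% rose and 13.4% fell, and these shares are the background for each list here. The HSP90 cochaperones Fkbp4 (527 ± 119 CPM in MYCN ON, 216 ± 18.0 CPM in MYCN OFF, adjusted p = 0.00134, log2 fold change 1.28), Ptges3, which is p23 (log2 fold change 0.93), and Ppid, which is cyclophilin 40 (1.11), rose, as did Hsp90aa1 and Hsp90ab1. In the same list Stip1 (log2 fold change 0.82) and Fkbp5 (0.97) also rose. Unc45a fell (log2 fold change -0.86, edgeR adjusted p = 0.0137), and Cdc37, Ahsa1, Chordc1 and Aarsd1 were not called. The HSP70 exchange factor Bag2 rose (log2 fold change 1.35). The heat shock factors of the list went different ways. Hsf4, known from the lens, fell from 15.1 ± 3.06 to 3.12 ± 2.25 CPM (log2 fold change -2.27, adjusted p = 0.00419). Hsf2 rose (log2 fold change 0.58, edgeR adjusted p = 0.0189), and Hsf1 was not called (-0.28, edgeR adjusted p = 0.422). Of 13 reticulum folding genes, 2 rose and 1 fell: the lectin chaperone Canx rose by a log2 fold change of 0.83 (adjusted p = 0.0224), the translocon J protein Sec63 by 0.44 (adjusted p = 0.0251), and the BiP exchange factor Sil1 fell by 0.75 on the log2 scale (adjusted p = 0.0146). Of 10 mitochondrial folding and import genes tested 2 rose, the import receptor Tomm70a (log2 fold change 1.56, adjusted p = 0.000905) and the protease subunit Clpp (0.75, adjusted p = 0.0135). By edgeR 0 of these 10 fell, also 0 at an unadjusted p below 0.05, by DESeq2 and by limma voom.

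Fits with a marker score as a covariate gave fewer calls over all genes as well as over the members. With a covariate for the lung marker score 9 members rose and 2 fell, where 7.76% and 3.58% of all genes did. With the immune marker score 7 members rose and 2 fell, where 5.54% and 3.12% of all genes did. The calls lost with either score were those of Dnaja1, Dnaja2, Dnajb6, Dnajc7, Dnajc11, Hspa8 and Hspa14 among the members that rose, and of each member that fell except Dnajb2. With the immune score Dnajc21 and Hspa4 lost theirs as well. Of the lost calls with the lung score, Dnaja2 (log2 fold change 0.84), Dnajc11 (0.98), Dnaja1 (0.56), Dnajb6 (0.47), Hspa14 (0.50), Dnajc7 (0.54) and Dnaja4 (-1.70) stayed near the values given above. Hspa8 (0.64), Hspa2 (-0.87), Dnajc1 (-0.48), Dnajb13 (-1.60), Hspb1 (-0.79) and Hspa12b (-0.63) lay farther from theirs, nearer to 0. The part of other cell types in these differences was not tested. Without MYCN ON tumor 2 or without MYCN OFF tumor 1 the number of members that fell was 4. In the 6 tumors with lung markers under 1000 CPM, 5 MYCN ON and 1 MYCN OFF, an alternative chosen after seeing the data, the 16 members that rose and the 7 that fell kept their direction, and no calls were read from a fit with a single MYCN OFF tumor. These 6 tumors were also in the fit that called the members, so the kept direction is no separate check. Scaling by library totals, which moved the median of all genes to -0.31, gave 12 higher and 11 lower members. Over all 15237 genes tested, that scaling gave 1317 higher and 3347 lower.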

How the data were processed

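RNA was extracted with TRIzol and poly(A) RNA was made into libraries with the NEBNext Ultra kit, per the labels' protocols. Per the submitters' processing notes, bcl2fastq 1.8.4 along with TopHat2 (2.0.8b), HTSeq (0.6.1) and build mm9 were used. Annotation, options and strandedness are not given in the sources used here. The authors deposited raw read counts per gene symbol and tumor. Summary records that name no gene were left out of library sizes (14.8% to 21.5% with no annotated gene). Groups came from the sample titles.

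Counts were fitted with edgeR 4.0.16 in R 4.3.3 on all 11 tumors: filterByExpr (minimum count 10, minimum total 15), TMM factors, robust quasi-likelihood test, Benjamini-Hochberg adjustment over 15237 genes. Standard errors were derived as |log2 fold change| over the root of F. The fit was tested on simulated data. Duplicated libraries were looked for with a chi-square test of counts in 27 same-group pairs, and no pair differed by as little as sampling noise. Alternatives were RLE, upper quartile and total scaling, DESeq2 1.42.0, limma voom 3.58.1, other filters, a block, marker covariates, a stricter threshold, and each tumor left out. The lung-poor fit, the ratios and the correlations (log2 of CPM plus 0.5) were added after seeing the data. Members, locations (by hand, from general knowledge), lists and rules were chosen with earlier results of these data known. Values per tumor are given for 14 preset members, and in each family for the 4 called members of smallest p and the 2 uncalled members of highest CPM. Cofactors named are the called ones of smallest p, with further genes of the cytosolic list named where they bear on these or on the small HSPs. Transcript lengths came from GENCODE vM21 and served for length alone.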

Additional observations from a re-analysis of the deposited data

Results flagged for a closer look

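A tumor stood far from the rest of its group, by the gap to its nearest neighbour over the group's range, in 9 of 68 groups looked at, where chance flags about 1 in 20. In MYCN ON, tumor 4 was the highest for Hspe1 at 306 CPM (next 186), Dnaja1 at 756 (next 503), Hspa4l at 124 (next 76.9), Hsph1 at 465 (next 144) and Hsp90b1 at 1615 (next 988). In MYCN OFF, tumor 1 was the highest for Dnaja2 at 186 CPM (next 142), Hspa2 at 56.7 (next 30.9) and Hsp90aa1 at 1497 (next 1077), and tumor 2 was the highest for Hspb6 at 34.8 (next 12.1). The lung markers of MYCN ON tumor 4 summed to 23.4 CPM. The cause of these values was not tested.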

How the results depend on the processing

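The 16 members that rose and the 7 that fell kept their direction in every alternative in which they were tested, and Hspd1, Hspe1, Hspa9, Hsp90aa1, Hsp90ab1, Dnajb2, Dnajc2 and Dnajc9 kept their call in all 22 alternatives on the full set of genes. The number that rose was 9 with the lung score, 7 with the immune score and 10 at an adjusted p below 0.01, where calls over all genes dropped too. The number that fell was 11 under both upper quartile and library total scaling. Those scalings also called more of all genes lower, 2894 and 3347 of 15237, against 2038 in the main fit. The number that fell was 2 with the lung score (Dnajb2 and the newly called Hspa4l) and 2 with the immune score (Dnajb2 and the newly called Dnajc14). It was 3 at an adjusted p below 0.01, and 4 to 8 with a tumor left out. In the lung-poor tumors alone, added after seeing the data, both numbers were 0, but with 1 MYCN OFF tumor that fit called 0 of all genes and says nothing about the members. With the replicate number as a block 4 fell, and 14 rose, 13 of the 16 and the newly called Dnajc8. The deviations of same-numbered tumors from their group means correlated at -0.162, 0.462, -0.0763 and 0.265. They were not compared with those of differently numbered tumors, so these values do not settle whether the numbers pair the tumors. Members that were not called changed sign. With the block, Dnaja3 was at 0.013 and Dnajb11 at 0.035 on the log2 scale, with the lung score Dnaja3 at 0.073, and with the immune score Dnaja3 at 0.12, Dnajb11 at 0.18, Dnajc10 at -0.12 and Hspa1b at 0.15. With upper quartile factors Dnajc10 was at -0.13, Hspa5 at -0.025 and Hsp90b1 at -0.056, with library totals at -0.22, -0.12 and -0.15, and in the lung-poor tumors Dnajb11 at 0.31. With a tumor left out, Dnaja3 ranged from -0.13 to 0.046, Dnajb11 from -0.19 to 0.052, Hspa5 from -0.017 to 0.35, Hsp90b1 from -0.052 to 0.27 and Hspb6 from -0.84 to 0.078. The cause was not tested. Depth limits Hspa1a, Hspa1b, Dnajb3, Dnajb7 and Dnajb13, with 149, 235, 122, 154 and 302 reads over all tumors.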
